A study of Papio anubis with 12 samples.

Results

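The genes described here are those of the heat shock response and the unfolded protein response (UPR), measured in the precentral gyrus of the cerebral cortex of 12 baboon neonates fed formulas with different amounts of long chain polyunsaturated fatty acids. A list of 38 genes was matched to the platform annotation, and a probe set was taken when it was annotated with that symbol alone. By this rule 36 genes were measured with 90 probe sets, of 19775 genes and 41091 such probe sets on the array. HSPA8, the constitutive cytosolic HSP70, appeared on 4 probe sets that also carried other symbols, and HSF2, a heat shock factor, on none, so neither was measured. The brightest probe set by the mean over the 12 arrays stood for each gene. Values of other probe sets are given for some genes, and their signs are counted for all.

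Heat shock proteins are chaperones that hold, fold or hand over unfolded proteins, and HSF1 is the transcription factor that raises many of them after heat or other protein damage. In the endoplasmic reticulum (ER), the sensors IRE1 (gene ERN1), PERK (EIF2AK3) and ATF6 respond to unfolded protein and act through XBP1, ATF4 and cleaved ATF6. Their targets include ER chaperones, disulfide isomerases and the parts of ER-associated degradation (ERAD), which returns misfolded protein to the cytosol for the proteasome.

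The docosahexaenoic acid (DHA) content was 0.33% in formula L and 1.00% in formula L3, each with 0.67% arachidonic acid (ARA), and formula C had neither. The 12 animals were born after about 182 days of gestation, were fed their formula for 12 weeks and were 83 to 87 days old at necropsy. Each formula had 4 animals, with 1 array per animal. There were 2 males in C, 1 male in L and 0 males in L3, so sex was not balanced. The L3/L comparison is a difference in DHA at equal ARA, whereas L/C and L3/C change both fatty acids. Probes of the HG-U133 Plus 2.0 array were designed on human transcripts and met baboon RNA here, so levels of different genes are not compared.

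Neuronal markers were bright in all groups, with means over the 12 arrays between 2307 for NEFM and 22646 for SNAP25. Over the whole table no gene passed an adjusted p of 0.05 in any comparison (limma, Benjamini-Hochberg). Of 60 marker genes in 8 lists, 1 in L/C, 5 in L3/C and 5 in L3/L had an unadjusted p under 0.05, where 2.11%, 3.88% and 5.06% of all genes did. In L/C this was C1QB, higher in L, and all 8 microglial markers had a positive difference there, where 46.5% of all genes did. In L3/C, AQP4 and HBB were higher in L3 and CA1, SYN1 and NR4A1 lower. In L3/L, HBB and the choroid plexus genes TTR and AQP1 were higher in L3 and ENO2 and AIF1 lower. Summed signals of the 5 choroid plexus and ependymal markers ranged over 982 to 1855 in C, 857 to 1386 in L and 1045 to 3086 in L3. Array quality varied within formulas. The log2 difference between the 3′ and 5′ probe sets of ACTB, a measure that grows as RNA is degraded or copied incompletely, ran between -0.03 and 3.59 in C, between -0.15 and 3.45 in L and between 0.17 and 6.18 in L3. Spike-in controls averaged 12.02 ± 0.67 in C, 11.70 ± 0.99 in L and 12.73 ± 1.32 in L3 on the log2 scale (SD, n = 4). These spreads overlapped, with exact permutation p between 0.29 and 0.6 over both measures and the 3 comparisons. The part of markers and array quality in the members' differences was not tested, apart from the fits given below.

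No member passed the adjusted threshold in any comparison, and most differences between formulas lay within the spread of the animals. In L/C, 19 of 36 members were higher in L, and 0 reached an unadjusted p under 0.05, where 2.11% of all genes did. The arrays of L and C were apart for 0 members, where 2.08% of all genes had no overlap. In L3/C, 14 of 36 were higher in L3, and 0 reached an unadjusted p under 0.05, against 3.88% of all genes. HSPA13 was the single member without overlap there, where 2.16% of all genes had none. With arrays centred on their medians it overlapped, whereas BAG3 lay wholly below C in L3/C and DNAJB9 wholly above C in L/C. In L3/L, 15 of 36 were higher in L3 and 4 reached an unadjusted p under 0.05, against 5.06% of all genes. HSPD1 and HERPUD1 were higher in L3, and CRYAB and HSP90B1 were lower. The arrays were apart for 2 members in L3/L, HSPA13 and EDEM1, with 2.53% of all genes beside them. At the adjusted threshold the share of all genes called was 0% in each of the 3 comparisons, and the smallest adjusted p of a member was 0.999985 in L/C, 0.999 in L3/C and 0.891 in L3/L.

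Sizes were small in L/C, where 32 of 36 members differed by less than 1 standard error. This was so for 25 members in L3/C and 15 in L3/L. The median log2 difference of the members was 0.02 in L/C, -0.07 in L3/C and -0.05 in L3/L, beside -0.03, -0.03 and 0.0002 over all genes in the same order of comparisons. When each array was instead centred on its own median, the members' median was -0.28 in L3/C and -0.39 in L3/L, and that of all genes was -0.18 in both. Centring left 5 of 36 members higher in L3 than in C and 7 of 36 higher in L3 than in L. A difference past 1 on the log2 scale was seen for 0 members in L/C, 1 in L3/C and 3 in L3/L. The share of all genes past 1 was not counted. The median absolute log2 difference was 0.16, 0.24 and 0.35 for the members, beside 0.25, 0.29 and 0.32 over all genes. Any difference among the 3 formulas had an unadjusted p under 0.05 for 2 members, HSPD1 and HERPUD1, and for 3.24% of all genes. In tissue pieces such as these, fewer cells of a type and less RNA per cell cannot be told apart.

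**Figure D1:**
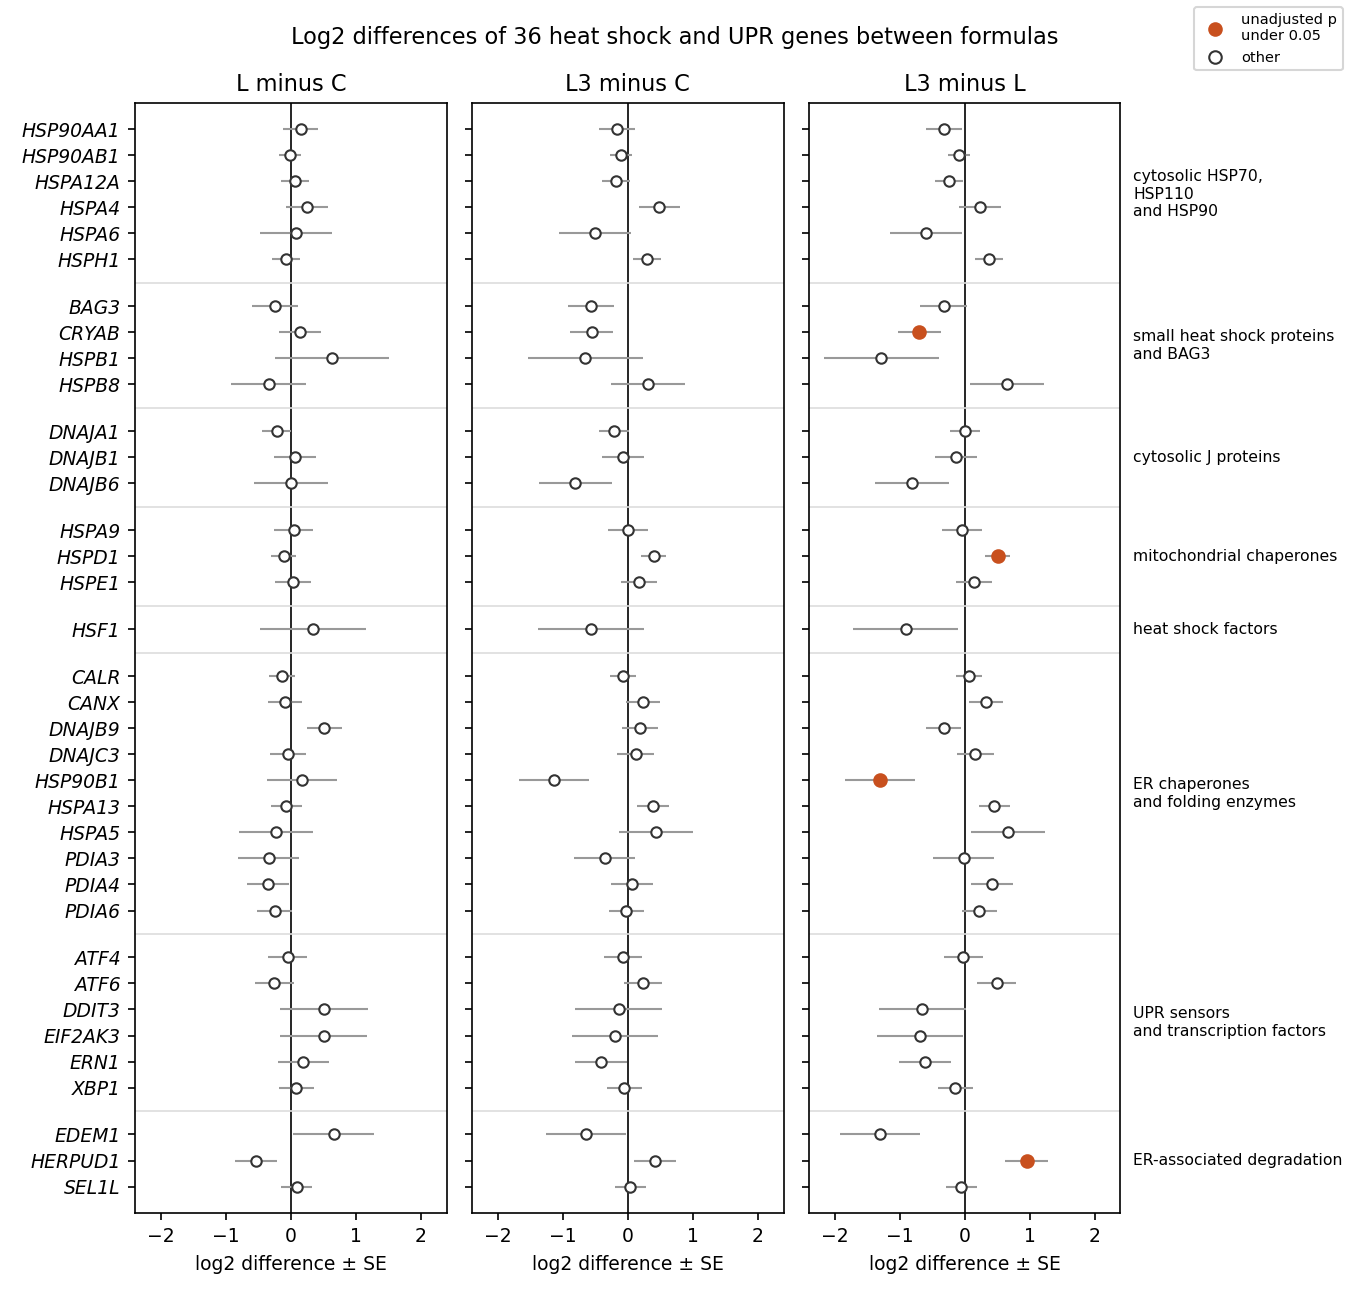
Log2 difference with its standard error (horizontal axis) for each of the 36 measured genes (rows, grouped by role) in L minus C, L3 minus C and L3 minus L, from quantile normalized log2(signal + 16) with 4 arrays per formula. Filled points mark an unadjusted p under 0.05, which 4 genes reached in L3 minus L and 0 in the other comparisons.

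HSF1 was the only heat shock factor measured. Its signal was 36.9, 48.7, 107.7 and 206 in C arrays, 12.9, 121.5, 259.8 and 180.8 in L arrays and 24.8, 18, 88.4 and 165.2 in L3 arrays. Low and high arrays occurred under every formula, and the ranges overlapped. HSF1 differed by -0.91 ± 0.81 in L3/L, -0.57 ± 0.81 in L3/C and 0.34 ± 0.81 in L/C (log2 scale, ± SE), and the exact permutation p was 0.4 in L3/L and 0.486 in L3/C.

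Of the 6 cytosolic chaperones of the HSP70, HSP110 and HSP90 families, the number higher was 4 in L/C, 2 in L3/C and 2 in L3/L, and centring on array medians made the last 2 numbers 1 and 0. None of the 6 reached an unadjusted p under 0.05. HSP90AA1, the inducible cytosolic HSP90 and the brightest member of this group, had signals of 6061, 8840, 11376 and 14985 in C, 5221, 12858, 12422 and 14416 in L and 5611, 9354, 3909 and 13686 in L3. All 3 formulas spanned much the same range, and the log2 difference was -0.31 ± 0.27 in L3/L and -0.17 ± 0.27 in L3/C. The other probe sets of HSP90AA1 gave 0.12, 0.41 and 0.11 in L3/C. HSPA6, an HSP70 that in human cells is made almost only under stress, had the largest L3/C difference of the group, at -0.51 ± 0.55. Its signals were 143.3, 395.5, 265.7 and 389.8 in C, 348.8, 252.9, 301.5 and 269.8 in L and 239.3, 37.9, 433.6 and 341.9 in L3. The difference rested on 1 dim array, since without L3 array 2 it was 0.15 in L3/C and 0.07 in L3/L. The dimmer probe set of HSPA6 gave 0.77 in L3/C and 0.55 in L3/L. HSPH1, an HSP110 nucleotide exchange factor, differed by 0.37 ± 0.21 in L3/L, and HSP90AB1, the constitutive HSP90, by -0.09 ± 0.17. The other probe sets of HSPH1 gave -0.16 and -0.31 in L3/L. HSPA4, another HSP110, differed by 0.24 ± 0.32 in L3/L and HSPA12A, a distant relative of HSP70, by -0.24 ± 0.22, and for both genes other probe sets had the opposite sign.

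The small heat shock proteins hold unfolded protein without using ATP, and BAG3 links HSP70 and HSPB8 to autophagy. In this group the number of genes that were higher was 2 of 4 for L/C, 1 of 4 for L3/C and 1 of 4 for L3/L. CRYAB, alpha B-crystallin, which is made in glia as well as in lens and muscle, had signals of 1393, 685.2, 1211 and 1317 in C, 834.6, 1684, 1459 and 1136 in L and 837.1, 521, 430.3 and 1421 in L3. The L3 arrays 2 and 3 were below all others, while L3 array 4 lay above 2 of the L arrays, so the formulas overlapped. The log2 difference was -0.69 ± 0.33 in L3/L (unadjusted limma p = 0.0497, adjusted p = 0.891, exact permutation p = 0.114) and -0.56 ± 0.33 in L3/C (exact permutation p = 0.257). Leaving out L3 array 3 gave -0.43 in L3/L and -0.30 in L3/C. CRYAB had 1 probe set, so no other gave a check.

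HSPB1, the HSP27 gene, had the largest standard error of the members. Its signals were 85.3, 70.8, 564.5 and 494.2 in C, 68.6, 789, 343.1 and 602.3 in L and 45.8, 184.9, 48 and 564.3 in L3. Each formula held both dim and bright arrays. On the log2 scale HSPB1 differed by -1.28 ± 0.88 in L3/L, -0.65 ± 0.88 in L3/C and 0.63 ± 0.88 in L/C, with exact permutation p of 0.257, 0.543 and 0.629. HSPB8 differed by 0.65 ± 0.57 in L3/L, where its dimmer probe set gave -0.55, and BAG3 by -0.32 ± 0.36. The BAG3 signals were 283.3, 350.6, 185.1 and 216.6 in C, 262.5, 238.2, 186 and 165.7 in L and 177.9, 127.5, 286.9 and 182.8 in L3. Its log2 difference in L3/C was -0.57 ± 0.36 (exact permutation p = 0.0857), and the arrays overlapped except with centring on medians.

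J proteins bring clients to HSP70 and start its ATPase. The cytosolic ones were DNAJA1, DNAJB1 and DNAJB6, with 2 of the 3 higher in L/C, 0 in L3/C and 1 in L3/L, and 0 in L3/L when arrays were centred on medians. DNAJA1, the brightest, had signals of 1761, 1378, 2156 and 2198 in C, 1253, 2105, 1573 and 1449 in L and 1566, 1339, 883.7 and 2200 in L3. It overlapped between formulas, with log2 differences of -0.21 ± 0.23 in L3/C and 0.01 ± 0.23 in L3/L. DNAJB6, which holds back protein aggregation, had signals of 152.5, 95.1, 241.6 and 182 in C, 155.9, 253.3, 108.9 and 135 in L and 158.3, 26.1, 75.4 and 177.9 in L3. Its log2 difference was -0.80 ± 0.57 in L3/C and -0.81 ± 0.57 in L3/L, and without L3 array 2 these were -0.36 and -0.37. DNAJB1, a heat-inducible partner of HSP70, differed by -0.07 ± 0.32 in L3/C.

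The mitochondrial chaperones were HSPD1 (HSP60), its lid HSPE1 (HSP10) and HSPA9 (mitochondrial HSP70). HSPD1 folds imported proteins inside its closed ring. Its signals were 2678, 2200, 3578 and 3376 in C, 1533, 3943, 2601 and 3271 in L and 3165, 4271, 2698 and 2911 in L3. On the deposited scale the 3 formulas overlapped widely. After quantile normalization 3 of the 4 L3 arrays lay above all L and C arrays, and the log2 difference was 0.51 ± 0.19 in L3/L (unadjusted limma p = 0.0184, adjusted p = 0.891, exact permutation p = 0.0857) and 0.40 ± 0.19 in L3/C (unadjusted limma p = 0.057). Both depended on the scaling, since without further normalization they were 0.26 and 0.14, and centring of arrays on their medians gave 0.06 and -0.03. HSPD1 had 4 other probe sets, which gave -0.49, -0.30, -0.11 and 0.83 in L3/L. The brightest of these 4 gave -0.30, and the dimmest gave 0.83. Of the 3 genes, 2 were higher in L3 than in L, and 1 was with arrays centred. HSPE1 and HSPA9 differed by 0.14 ± 0.28 and -0.04 ± 0.31 in L3/L.

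**Figure D2:**
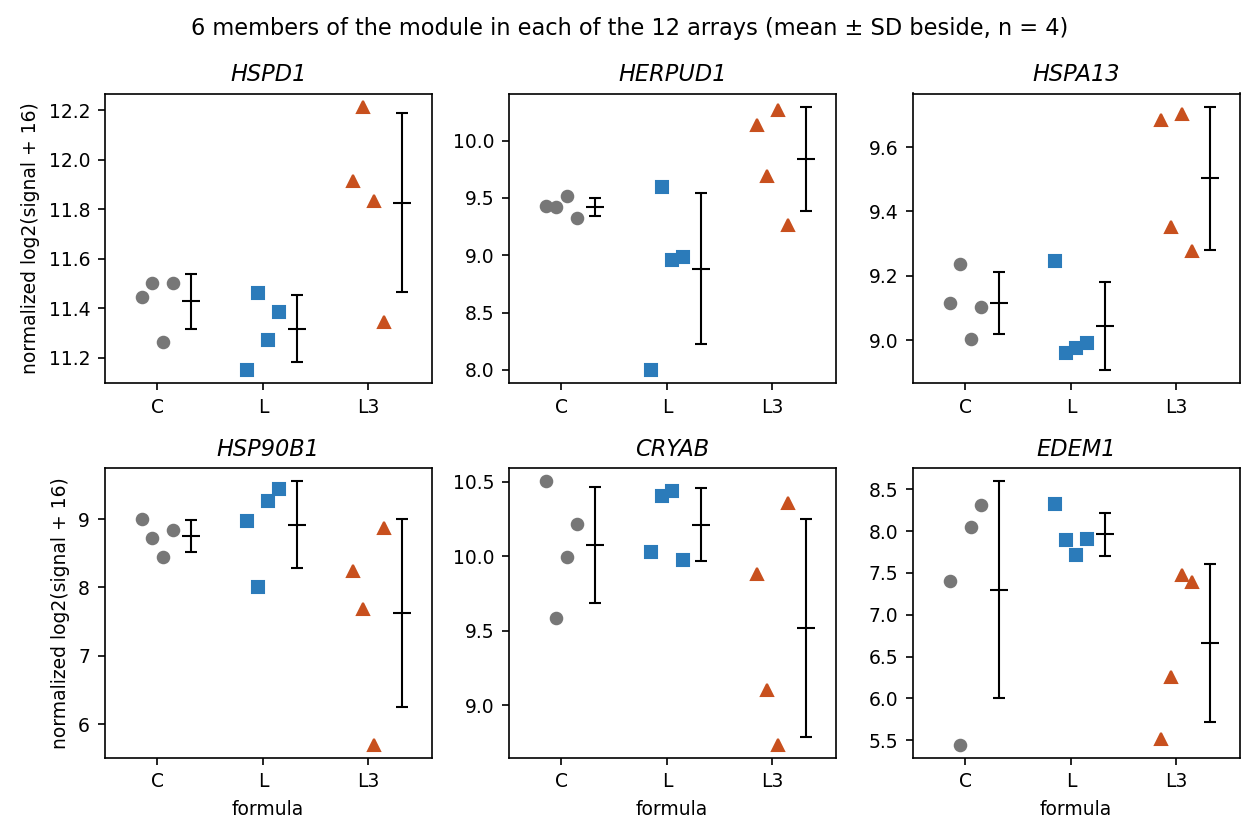
Quantile normalized log2(signal + 16) of the 6 genes that had an unadjusted p under 0.05 or no overlap between formulas in a comparison (vertical axis), for each array by formula (horizontal axis), and a bar to the right for the mean ± SD of 4 arrays. HSPA13 is the panel in which every L3 array lies above every L and C array, and in EDEM1 every L3 array lies below every L array.

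Among the 6 UPR sensors and transcription factors, 4 had a positive difference in L/C, 1 in L3/C and 1 in L3/L, and centring on array medians made these 5, 0 and 1. None reached an unadjusted p under 0.05 by its brightest probe set. ATF4, the factor made when PERK or a related kinase slows translation, was the brightest, with signals of 802.5, 955.5, 2399 and 1419 in C, 669.2, 2704, 1032 and 1464 in L and 879, 1089, 1106 and 1200 in L3. The L3 animals lay close together inside the range of the other formulas, and the log2 difference was -0.07 ± 0.30 in L3/C. ERN1, the IRE1 kinase and nuclease that splices XBP1 mRNA, had the largest L3/C difference, -0.41 ± 0.40. Its signals were 394.4, 263.4, 229.3 and 185.3 in C, 423.6, 317.5, 250.6 and 220.7 in L and 113.3, 192.6, 379.6 and 229.4 in L3. The ranges overlapped in all comparisons, and with the mean of all its probe sets the L3/C difference was 0.0058. XBP1 differed by -0.05 ± 0.27 in L3/C, and its splicing was not measured. DDIT3 (CHOP), a late factor of the response tied to cell death, differed by -0.14 ± 0.67 in L3/C and EIF2AK3 by -0.19 ± 0.66, both with wide spreads between animals.

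Of the 10 ER chaperones and folding enzymes, a positive difference was seen for 2 in L/C, 6 in L3/C and 7 in L3/L. The median log2 difference of this group was -0.11 in L/C, 0.10 in L3/C and 0.20 in L3/L, and it turned to -0.15 in L3/C and -0.10 in L3/L, with 2 and 3 genes higher, when arrays were centred on their medians. HSPA13, an HSP70-like ATPase of microsomes, had signals of 533.1, 566.6, 484.5 and 542.2 in C, 579.7, 463.2, 493.1 and 498.4 in L and 744.6, 606.7, 730 and 621.3 in L3. The lowest L3 array was above the highest L and the highest C array, on the deposited and on the quantile normalized scale, but not with arrays centred on their medians. The log2 difference was 0.46 ± 0.24 in L3/L and 0.39 ± 0.24 in L3/C, both with an exact permutation p of 0.0286, the smallest that 4 against 4 arrays can give. Any gene without overlap has this p, so it adds nothing to the lack of overlap by which HSPA13 was picked. With centring the log2 differences were 0.19 and 0.16. Neither passed limma, whose adjusted p was 0.891 in L3/L and 0.999 in L3/C. The dimmer probe set of HSPA13 gave -0.16 in L3/L and 0.72 in L3/C.

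HSP90B1 (GRP94), the HSP90 of the ER, had signals of 492.1, 425.3, 289.8 and 436.8 in C, 500.2, 204.4, 614.3 and 722.9 in L and 309.5, 216.2, 37.9 and 452.9 in L3. L3 array 3 was far below all others, and the formulas overlapped. The log2 difference was -1.30 ± 0.54 in L3/L (unadjusted limma p = 0.0287, adjusted p = 0.891, exact permutation p = 0.114) and -1.13 ± 0.54 in L3/C (unadjusted limma p = 0.0525, exact permutation p = 0.114). Without L3 array 3 it was -0.65 in L3/L and -0.49 in L3/C. The other probe set of HSP90B1, of nearly the same mean brightness, gave -0.31 in L3/L and 0.10 in L3/C, and read 428 in the array where the first read 37.9. Both end in _x_at, the mark for probes that also match other transcripts, as do the brightest probe sets of CALR, HSPA4 and PDIA6.

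CANX (calnexin), a lectin chaperone of glycoproteins, was the brightest of the ER group, with signals of 3157, 2990, 3246 and 2849 in C, 2090, 4061, 2077 and 3805 in L and 3570, 1917, 2874 and 4384 in L3. As deposited, the C signals lay within the range of both other formulas, while after quantile normalization the C arrays ran between 11.15 and 11.98 and overlapped with both. The normalized log2 difference was 0.33 ± 0.26 in L3/L and 0.24 ± 0.26 in L3/C. The other probe sets of CANX gave -0.19, -0.17, -0.16 and 0.16 in L3/L. HSPA5 (BiP), the master ER chaperone and a classical readout of the UPR, differed by 0.67 ± 0.57 in L3/L and 0.44 ± 0.57 in L3/C. Its signals were 1188, 344.2, 973.4 and 822.2 in C, 142.1, 1012, 1180 and 1213 in L and 1003, 650.9, 680.8 and 1624 in L3, with L array 1 far below the rest. The other probe set of HSPA5, which was dim, gave -0.20 in L3/L and -0.64 in L3/C. BiP and DNAJB9 were singled out after their values were seen. DNAJB9, a J protein of the ER that binds IRE1, had the smallest unadjusted limma p of the members' brightest probe sets in L/C. Its log2 difference there was 0.52 ± 0.27 (limma p = 0.0773, exact permutation p = 0.0571). The dimmer probe sets of DNAJB9 went the other way in L/C, at -0.02 and -1.02. The other genes of the group were CALR (calreticulin), the soluble partner of calnexin, and DNAJC3, a J protein that works with BiP. With them were the disulfide isomerases PDIA3, PDIA4 and PDIA6. By brightest probe set, the log2 differences of these genes lay between -0.35 and 0.42 in all 3 comparisons.

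ERAD was represented by HERPUD1, SEL1L and EDEM1. HERPUD1, an ER membrane protein that gathers the ubiquitin ligase complex and is itself a UPR target, had signals of 656.6, 628.2, 790.3 and 648.1 in C, 285.9, 831.2, 484.3 and 496.9 in L and 988.7, 755.2, 1016 and 617.2 in L3. L arrays 1, 3 and 4 were below every other array and L array 2 was among the bright ones. The log2 difference was 0.96 ± 0.33 in L3/L (unadjusted limma p = 0.00994, adjusted p = 0.891, exact permutation p = 0.0571), 0.42 ± 0.33 in L3/C and -0.54 ± 0.33 in L/C. The L3/L value ranged between 0.66 and 1.19 as single arrays were left out, and it was 0.53 with arrays centred on their medians. The other probe set of HERPUD1, which was dim, gave 0.08 in L3/L and -0.30 in L3/C.

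EDEM1, a mannosidase-like protein that marks glycoproteins for disposal, had signals of 161.9, 36, 204.2 and 280.7 in C, 349.9, 185.9, 182.9 and 196 in L and 35.3, 62.6, 196.3 and 138.5 in L3. As deposited, L3 array 3 lay within the L range, and after quantile normalization or centring all 4 L3 arrays lay below all 4 L arrays. The log2 difference was -1.30 ± 0.62 in L3/L (unadjusted limma p = 0.0517, adjusted p = 0.891, exact permutation p = 0.0286), -0.64 ± 0.62 in L3/C and 0.66 ± 0.62 in L/C. That exact p follows from the lack of overlap and adds nothing to it. EDEM1 had 1 probe set. The L/C difference was 0.04 without C array 2. SEL1L, the adaptor of the ubiquitin ligase and the brightest gene of this group, had signals of 1124, 812.8, 1656 and 955.9 in C, 993.5, 1512, 1030 and 1152 in L and 1267, 1109, 790.7 and 918.4 in L3, and differed by -0.05 ± 0.24 in L3/L and 0.04 ± 0.24 in L3/C. HERPUD1 and EDEM1, both degradation factors, thus stood on opposite sides of 0 in L3/L.

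A gene read by several probe sets gives a check within the same arrays. Of the 28 members with more than 1 probe set, all probe sets of the gene had the same sign for 12 genes in L/C, 4 in L3/C and 7 in L3/L. Over all 90 probe sets, an unadjusted p under 0.05 was found for 2 in L/C, 1 in L3/C and 6 in L3/L. The share over all probe sets of the array was not counted. By brightest probe set it was 2.11%, 3.88% and 5.06% of all genes. The dimmer probe sets of members with such a p belonged to DNAJC3 and ERN1 in L/C, with log2 differences of 1.85 and 1.44. The rest belonged to HSPD1 in L3/C, at 1.13, and to ATF6 in L3/L, at -1.38 and -1.13. The brightest probe set of ATF6 gave 0.49 ± 0.30 in L3/L. Of the 4 genes named by their L3/L p, HERPUD1 and HSP90B1 had other probe sets of the same sign, HSPD1 had other probe sets of both signs and CRYAB had none. The other probe set of HERPUD1 was dim, at 0.08 ± 0.45, and that of HSP90B1 gave -0.31 ± 0.45. For HSPD1 only its dimmest probe set had the sign of the brightest.

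**Figure D3:**
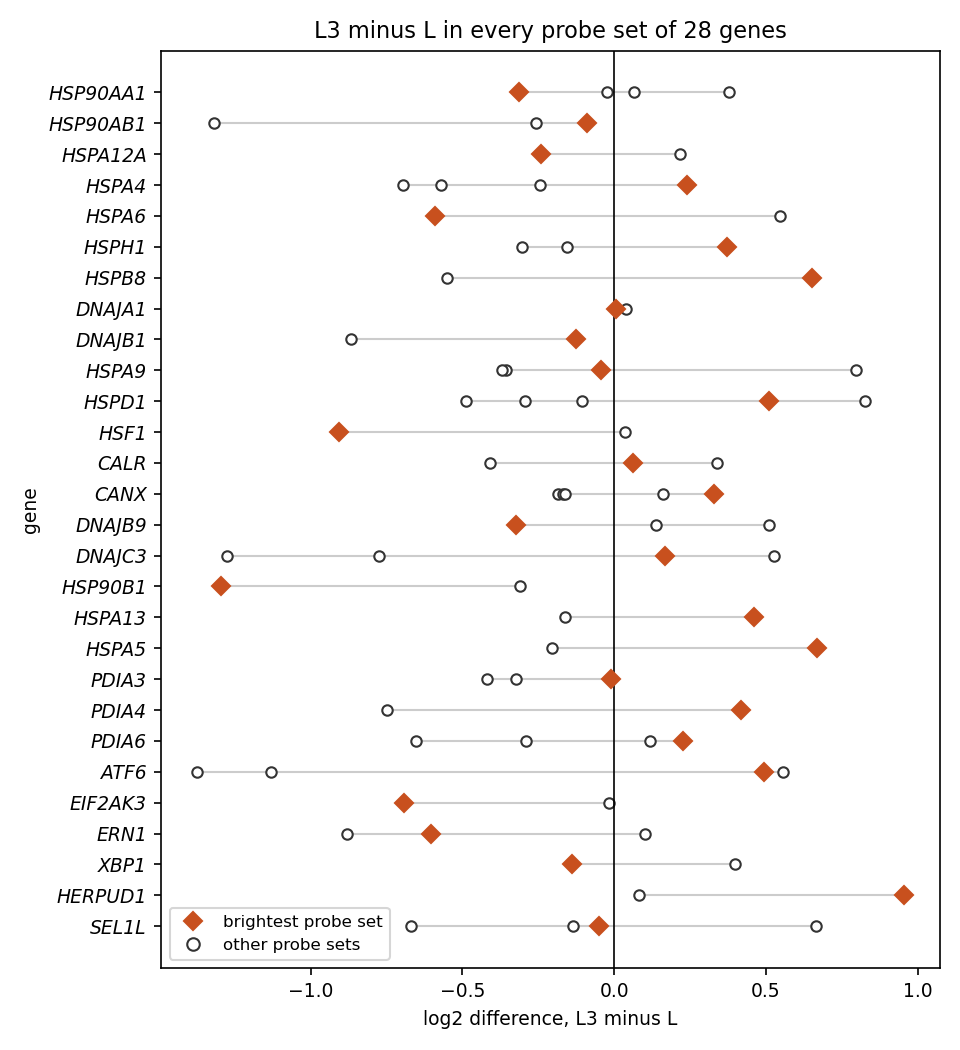
Log2 difference L3 minus L (horizontal axis) in every probe set of the 28 genes that had more than 1 (rows), with the brightest as a filled diamond and the others as open circles. All symbols of a gene lie on one side of 0 for 7 of the 28 genes.

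At an adjusted p under 0.05, slopes on array measures within the formulas were called for about as small a share of members as of all genes. At an unadjusted limma p under 0.05, 5 of 36 members rose and 5 fell on the ACTB 3′/5′ difference, beside 1568 and 1676 of 19775 genes. On the spike-in signal 3 members rose and 7 fell, beside 1609 and 1946 genes. These were larger shares of the members than of all genes, apart from the rising spike-in slopes, where the shares were alike. A slope on the ACTB 3′/5′ difference, fitted with the 3 formula means, was called at an adjusted p under 0.05 for 1 of 36 members, HSF1, at -0.57 ± 0.14 per log2 unit (SE, adjusted p = 0.0393). Among all genes 1.68% had a called falling slope and 0.556% a called rising one. The other probe set of HSF1 gave -0.10 (adjusted p = 0.776). Dimmer probe sets of 3 more members had called slopes on this measure, at -1.41 and -0.34 for HSP90AB1, -0.17 and 0.18 for HSP90AA1 and -0.31 for HSP90B1. The share of such slopes over all probe sets of the array was not counted. A slope on the spike-in signal was called for HSPB1 alone, at -1.19 ± 0.28 per log2 unit (adjusted p = 0.0419), with 0.85% of all genes falling and 0.708% rising. The slope of HSPB1 on the ACTB measure was -0.59 (adjusted p = 0.0584), and that of HSF1 on the spike-in signal was -1.04 (adjusted p = 0.0656). Without the 2 arrays farthest from the median ACTB value, L3 array 1 and L array 4, the HSF1 slope was -0.88 (adjusted p = 0.0322). HSF1 read 12.9 to 88.4 in the 6 arrays with higher spike-in signal, which were C arrays 1 and 2, L array 1 and L3 arrays 1 to 3, and 107.7 to 259.8 in the other 6. HSPB1 read 45.8 to 184.9 and 343.1 to 789 in the same arrays. With the spike-in signal as a covariate the L3/C difference was 0.17 for HSF1 and 0.19 for HSPB1, the other sign from that without it.

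**Figure D4:**
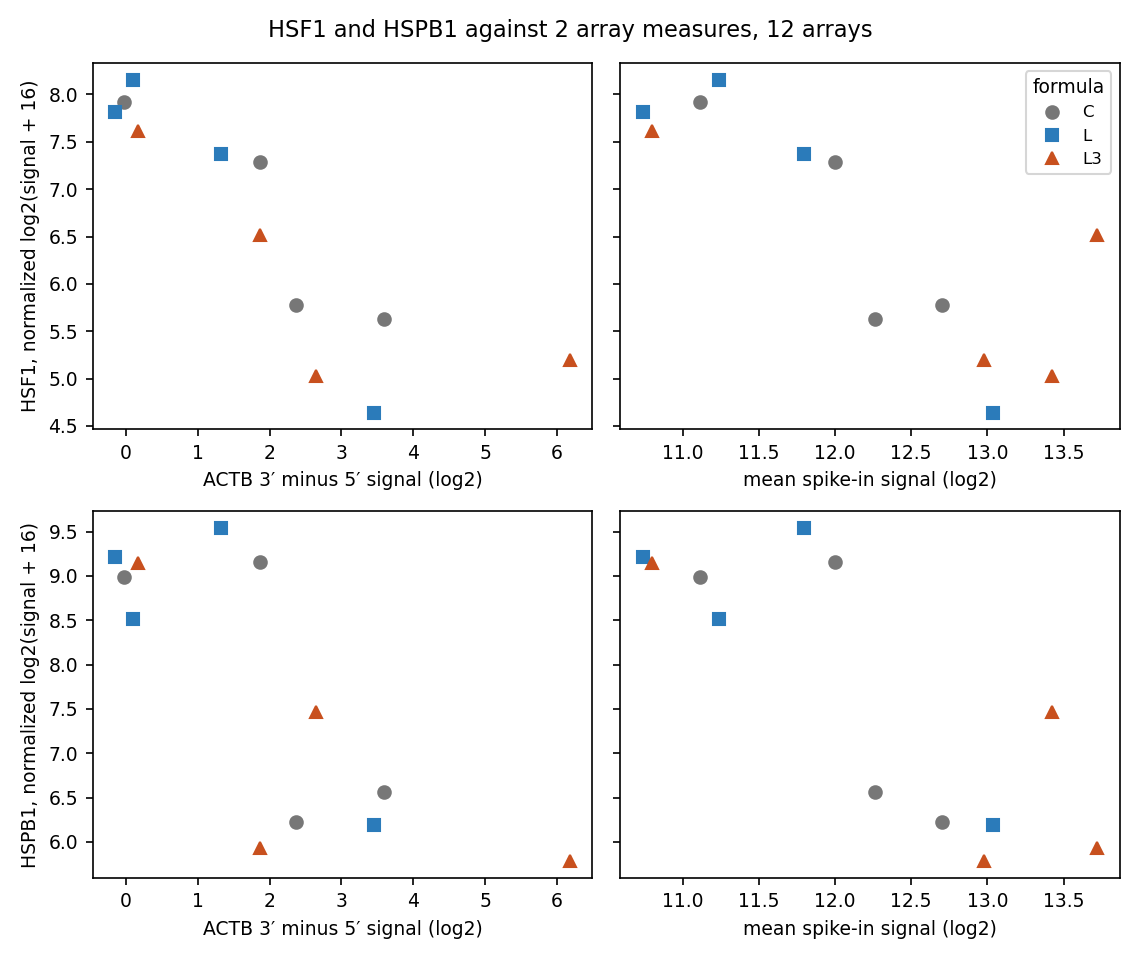
Quantile normalized log2(signal + 16) of HSF1 (top) and HSPB1 (bottom) in the 12 arrays (vertical axes) against the ACTB 3′ minus 5′ log2 difference (left) and the mean log2 spike-in signal (right), with symbols by formula. Both genes are lower in arrays with larger values of either measure, and arrays of all 3 formulas lie at both ends.

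The 6 arrays of lower spike-in signal held L3 array 4, 3 L arrays and 2 C arrays. This subset was chosen after seeing the data, and the lone L3 array is assumed to vary like the other formulas. Spike-in level and that 1 animal cannot be told apart in it, so its values are given as a description. The log2 difference in L3/L was 0.09 ± 0.32 for HERPUD1, -0.03 ± 0.20 for HSPD1, 0.08 ± 0.25 for CRYAB and -0.03 ± 0.54 for HSP90B1. It was 0.30 ± 0.24 for HSPA13 and -0.45 ± 0.39 for EDEM1, beside 0.46 and -1.30 in all arrays. In L3/C, HSPD1 was -0.04, HERPUD1 -0.15, CRYAB 0.25 and HSP90B1 0.23, each of the other sign from that in all arrays.

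Followed array by array, the mean deviation of the 36 members from their means over the 12 arrays ran between -0.24 in L3 array 2 and 0.18 in C array 4. L3 arrays 1, 2 and 3 were at -0.06, -0.24 and -0.14, and L3 array 4 was at 0.12. C arrays 1 and 2 were at -0.03 and -0.19, and L array 1 was at -0.20. C arrays 3 and 4 were at 0.12 and 0.18, and L arrays 2 to 4 at 0.18, 0.10 and 0.14. The mean was thus negative in every array with higher spike-in signal and positive in every array with lower spike-in signal. The group of small heat shock proteins and BAG3 followed the same split. It was at -0.61, -0.38 and -0.49 in L3 arrays 1 to 3 and 0.44 in L3 array 4. Arrays of one formula so differed by more than formulas did, and the part of spike-in level in this was not tested. The mitochondrial group was highest in L3 array 2, at 0.60, and lowest in L array 1, at -0.49. The mean of the ER chaperones had the narrowest range next to the members as a whole, between -0.27 in L array 1 and 0.21 in C array 1. A mean over more genes varies less, and this was the largest role group, with 10 genes. Single ER genes ranged widely over the 12 arrays, HSP90B1 by 3.74 and HSPA5 by 3.48 on the log2 scale.

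**Figure D5:**
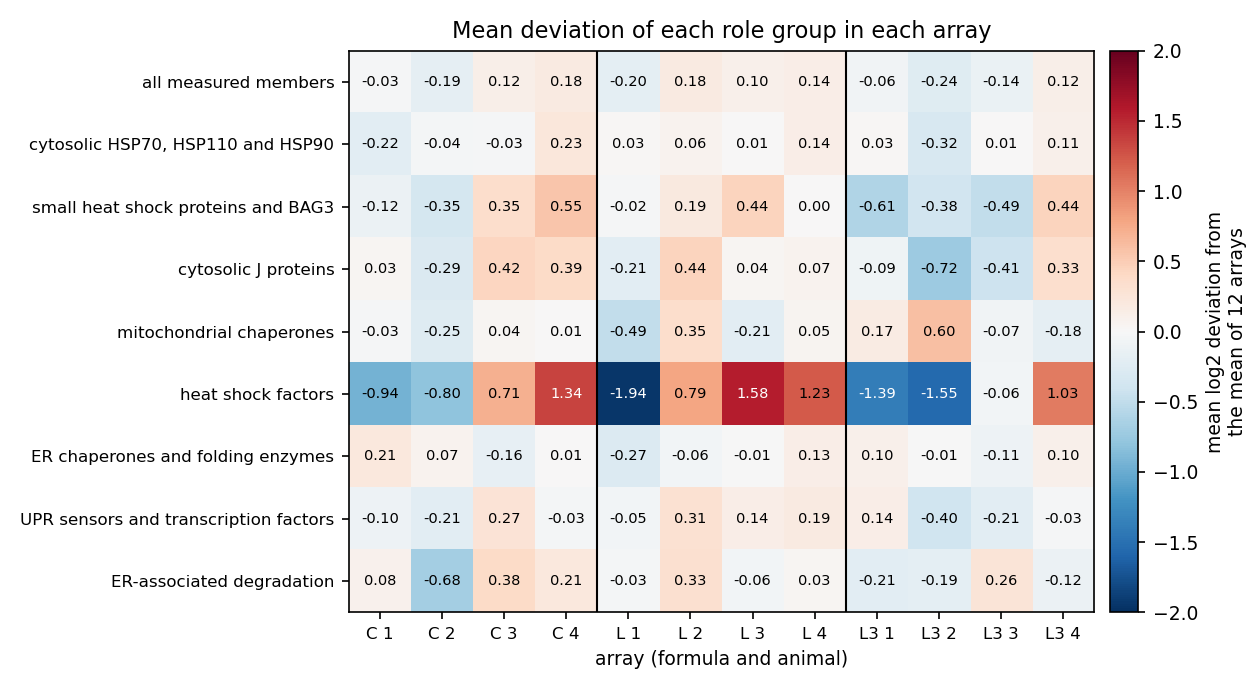
Mean log2 deviation from each gene's mean over the 12 arrays (colour and number), for all 36 measured genes and for each role group (rows) in each array (columns, by formula and animal). The group of heat shock factors is HSF1 alone, and most groups are above 0 in some animals of a formula and below 0 in others.

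The other genes of these pathways were taken from 7 lists of 135 genes, of which 124 were measured. In L/C, 53 of the 124 were higher in L and 1 had an unadjusted p under 0.05. That gene was BAG5, an HSP70 co-chaperone, at 1.62 ± 0.58. In L3/C, 40 were higher in L3 and 1 had such a p, and in L3/L 49 were higher and 6 had such a p, of which 1 was higher and 5 were lower in L3. None passed the adjusted threshold. The shares with an unadjusted p under 0.05 were 0.806%, 0.806% and 4.84%, beside the 2.11%, 3.88% and 5.06% of all genes given above. Over all genes, 46.5%, 46.9% and 50.0% were higher in the same order of comparisons. The list of other HSP70, J and small heat shock proteins, which holds HSPB3 and DNAJB12 that the study had picked on these arrays, had 0 of 26 measured genes with such a p in any comparison. The study also reported higher PTGES3 (p23), a co-chaperone of HSP90, in L and L3. PTGES3 is on the list of HSP70 and HSP90 co-chaperones, where BAG5 alone of 15 measured genes had such a p, in L/C. The study's picks rested on RMA values and its own tests of any probe set, while only the brightest probe set of MAS5 signals was read here.

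UBE2J1, the ubiquitin-conjugating enzyme of the ER membrane that serves ERAD, was the single gene of these lists with an unadjusted p under 0.05 and no overlap in the same comparison, L3/C, where 2.16% of all genes had no overlap. Its signals were 656.9, 725.9, 729 and 586.1 in C, 702.3, 347.1, 778.7 and 666.8 in L and 351.9, 269.7, 407.6 and 479.7 in L3. Every L3 array was below every C array, and L array 2 was the one L array among the L3 values. UBE2J1 differed on the log2 scale by -0.93 ± 0.30 in L3/C (limma, adjusted p = 0.999) and -0.79 ± 0.30 in L3/L. Of the 17 measured genes in its list of other ERAD genes, 4 were higher in L3 than in L, where 50.0% of all genes were. Of the same 17, 3 had an unadjusted p under 0.05, where 5.06% of all genes did. All 3 were lower in L3, with UBE2G2 at -2.11 ± 0.79 and MAN1B1 at -0.99 ± 0.41 beside UBE2J1. BAG5, UBE2G2, MAN1B1 and the list of other ERAD genes were singled out after their values were seen.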

How the data were processed

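RNA from the precentral gyrus of each of 12 baboon neonates was hybridized to its own HG-U133 Plus 2.0 array, with 4 neonates to a formula. The authors deposited a table of MAS5 signals, an intensity on a linear scale summarized over the probe pairs of each set and scaled by array to a common trimmed mean. The paper's methods describe RMA values on a log2 scale, which the deposited signals are not. The depth of arrays has no count, and their number limits the precision.

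The 62 control probe sets were set aside and 54613 were kept. Signals were transformed to log2(signal + 16), which understates changes of dim genes, and quantile normalized. R 4.3.3 with limma 3.58.1 fitted the 3 formula means with a variance trend and 9 residual degrees of freedom. The p-values were adjusted by Benjamini-Hochberg over all 54613 probe sets at 0.05. Exact two-sided permutation tests compared 4 with 4 arrays. Symbols came from the platform annotation, by which 41091 probe sets have 1 symbol, 1801 several and 11721 none. Shares of all genes use the brightest probe set per gene.

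Genes given with every array had an unadjusted p under 0.05, no overlap between formulas, or the highest mean or largest L3/C difference of their role group. BAG3 and HSPA5 were given so without meeting this rule. BAG3 lacked overlap only with arrays centred on their medians, and HSPA5 was singled out after its values were seen. The members, lists and tests were chosen with earlier results of these data known. Alternatives were other scalings, pseudocount 1, only brighter probe sets, no trend, only the 8 arrays compared, sex, ACTB and spike-in covariates, females only, a replicate block, the mean of all probe sets, the methods' multiclass and pairwise tests, and leaving out each array. The subset of arrays with lower spike-in signal and the slopes without 2 arrays were added after seeing the data. Promoters and detection calls were not used here. Figures were drawn with matplotlib 3.10.9.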

Additional observations from a re-analysis of the deposited data

Results flagged for a closer look

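Within the 4 arrays of a formula, 1 array stood far from the other 3 in 7 of the 132 groups examined. There the gap to the nearest array, as a share of the group's range, was past the critical value of Dixon's test. All 7 were single members, while the 132 groups are more than the 36 members in 3 formulas make. Chance alone marks about 1 in 20 such groups. L array 1 gave 4 of the 7. It was low for HSPA5, at 7.06 on the normalized log2 scale beside 9.82 to 10.13 in the other L arrays (0.897 of the range), and for DNAJB1, at 8.33 beside 9.31 to 9.51 (0.833). It was high for HSPA12A, at 11.35 beside 11.01 to 11.06 (0.840), and for HSPA13, at 9.25 beside 8.96 to 8.99 (0.887). L3 array 2 was low for CANX, at 11.07 beside 11.92 to 12.07 in the other L3 arrays (0.849). L3 array 4 was low for PDIA4, at 8.84 beside 9.60 to 9.74 (0.846). C array 2 was low for DDIT3, at 5.76 beside 8.72 to 9.01 in the other C arrays (0.911).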

How the results depend on the processing

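No member passed an adjusted p of 0.05 in any of the comparisons L/C, L3/C or L3/L under any alternative, nor with any array left out. Unadjusted counts, sizes, some signs and the members without overlap moved. The replicate numbers pair no animals by their labels, and in 6 of 12 same-number pairs between formulas the array correlated best with its own number. These 6 were numbers 1 and 4 (r between 0.14 and 0.33), and numbers 2 and 3 had none (r between -0.09 and 0.06). Number 1 had the largest ACTB 3′/5′ difference of its formula, at 3.59 in C, 3.45 in L and 6.18 in L3. Number 4 had the smallest, at -0.03, -0.15 and 0.17. The part of this measure in the correlations was not tested. With the number as a replicate block, the L/C comparison had 1 member with an unadjusted p under 0.05, L3/C had 2 and L3/L had 6. Of all genes 2.69%, 5.05% and 6.74% had such a p under that setting. The share of all genes under the same setting is given in brackets below. In L/C the count was 1 with the ACTB covariate (2.86%), and 0 to 1 without single arrays (1.48% to 2.87%). In L3/C it was 1 with the spike-in covariate (3.29%) and 1 with the methods' tests (3.60%). Without single arrays it was 0 to 3, with 3 reached without L3 array 4 (7.90%). In L3/L it was 2 without further normalization (4.70%), with centring on medians (4.90%) and with the spike-in covariate (3.57%). It was 1 with the mean of all probe sets of each member (5.05%). Without single arrays it was 2 to 9, with 9 reached without L array 1 (7.70%). For any difference among the formulas the count was 0 without further normalization, with centring, without the variance trend and with the mean of all probe sets. It was 1 with sex, ACTB or spike-in as a covariate and in females only, and 0 to 4 without single arrays. The share of all genes was not counted for these. The members' median without single arrays lay between -0.05 and 0.08 for L/C, between -0.09 and 0.0028 for L3/C and between -0.12 and 0.0087 for L3/L, and with centring it was -0.28 in L3/C and -0.39 in L3/L. Of 24 named differences, 9 kept their sign under all 26 alternatives. In the 6 arrays of lower spike-in signal the sign turned in L3/C for CRYAB (0.25), ERN1 (0.044), HERPUD1 (-0.15) and HSF1 (0.0066). It turned there too for HSP90B1 (0.23), HSPA6 (0.0014), HSPB1 (0.074) and HSPD1 (-0.040). In L3/L the sign turned for CRYAB (0.081), DNAJB6 (0.12), HSPA6 (0.23), HSPB1 (0.060) and HSPD1 (-0.029). In L/C it turned for EDEM1 (-0.34). It also turned with the spike-in covariate for HSF1 (0.17 in L3/C, 0.16 in L3/L) and HSPB1 (0.19 in L3/C), with the mean of all probe sets in L3/C for ERN1 (0.0058) and HSPA6 (0.13), with centring for HSPD1 in L3/C (-0.027), and without L3 array 2 for HSPA6, which without single arrays ranged between -0.85 and 0.15 in L3/C and between -0.93 and 0.074 in L3/L. The cause of these turns was not tested. Keeping only brighter probe sets dropped 2 members. With 4 arrays per formula the median standard error of a member's log2 difference was 0.31, beside 0.46 over all genes.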
